A study of Mus musculus with 5 samples.

Results

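Binding of the transcription factors Hand1 and Foxf1 was examined at the loci of 10 mesodermal basic helix-loop-helix (bHLH) genes: Hand1, Hand2, Mesp1, Mesp2, Twist1, Twist2, Tcf21, Msc, Tcf15 and Msgn1. The genes are a named list, and a site belonged to a gene when the summit of a deposited chromatin immunoprecipitation (ChIP-seq) peak lay inside the gene or within 100 kb of either end. By this rule 5 of the 1134 peaks of the Hand1 list and 12 of the 5703 peaks of the Foxf1 list were sites of the 10 genes, which were compared with all 21887 protein-coding genes on the named mouse chromosomes. E14 mouse embryonic stem cells, an established line, were grown as embryoid bodies for 48 h and re-aggregated for 40 h with 5 ng/ml VEGF, 10 ng/ml Activin A and 0.3 ng/ml BMP4 to the stage labelled MES. For the stage labelled CP they were then plated for 32 h with 5 ng/ml VEGF, 10 ng/ml basic FGF and 25 ng/ml FGF10. The Hand1 list came from 1 library of Hand1-HA knock-in cells at MES, in which the tag sits on the gene's own product. The Foxf1 list belonged to replicate 1 of 2 libraries of cells with an inducible Foxf1-HA overexpression construct at CP. A homemade antibody against the HA tag was used for both factors, and 1 input library at each stage and the second Foxf1 library were not analysed here as lists. Whether either line was a single clone, and when and how Foxf1-HA was induced, is not given in the sources used here.

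Proteins of the bHLH family bind DNA as pairs through a basic region, and a helix-loop-helix segment holds the pair together. Tissue-specific members such as Hand1, Mesp1 and Twist1 usually pair with broadly expressed E proteins and recognise short sites of the E-box type, while Id proteins, which lack the basic region, hold E proteins in pairs that cannot bind DNA. In the embryo these genes mark successive mesodermal states: Mesp1 the earliest cardiac progenitors leaving the primitive streak, Msgn1, Mesp2 and Tcf15 the presomitic mesoderm and somites, Hand1 and Hand2 the lateral mesoderm and heart, Tcf21 the epicardium and visceral mesenchyme, and Twist1 and Twist2 mesenchyme at large. Foxf1 is a forkhead factor of the lateral and splanchnic mesoderm.

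Factor, stage and mode of expression differed together between the lists, so a difference between them cannot be assigned to any of these. With a single list for each factor, replicate error could not be estimated and no difference was tested. The lists hold no expression values, and the stage of the cells could not be checked against marker genes. Sequencing depth is not in the lists. The number of DNA fragments at each summit was inferred from the authors' fold enrichment and p-value. The median peak held 26 fragments for Hand1 and 29 for Foxf1. The lowest −log10 q-value, a measure of confidence in a peak, was 5.01 for Hand1 and 10.0 for Foxf1, so a weak site could enter the first list and not the second.

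Hand1 sites were found at 3 of the 10 genes, Hand1 itself, Mesp1 and Mesp2. Such a site lay within 100 kb of 9.9% of all protein-coding genes, against 30.0% of the 10. Mesp1 and Mesp2 are neighbours and both counted the same pair of Hand1 summits, so the 3 genes stand for 2 loci. Foxf1 sites were found at 7 of the 10 genes: Hand1, Hand2, Mesp1, Mesp2, Twist2, Tcf21 and Msgn1. The share of 70.0% was not far above the 53.3% of all protein-coding genes that had a Foxf1 site. It also counts the Mesp pair as separate genes, although all 3 Foxf1 sites of Mesp2 were sites of Mesp1 too. Each of the 3 genes with a Hand1 site also had a Foxf1 site, a combination found at 7.65% of protein-coding genes. With both lists held to a −log10 q limit of 10, none of the 5 Hand1 sites was lost. The Foxf1 list already began at 10.0, so no Foxf1 site could be lost. At this limit the shares of all protein-coding genes were 5.78% for Hand1 and 4.56% for both. Across all protein-coding genes, 77.2% of the 2167 with a Hand1 site also had a Foxf1 site, so the pairing at the 3 genes is the common case. The remaining 4 genes with Foxf1 sites had 1 site each and none in the Hand1 list. A Foxf1 site without a Hand1 site was found at 45.7% of protein-coding genes. Twist1, Msc and Tcf15 had no site in either list, as did 44.4% of protein-coding genes.

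**Figure D1:**
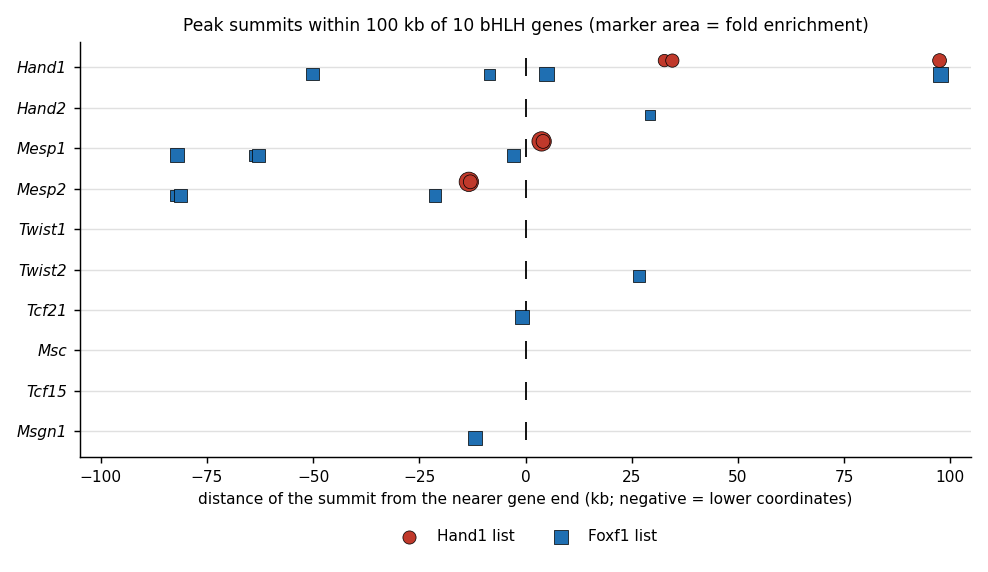
Summits within 100 kb of each of the 10 genes, placed by their distance in kb from the nearer gene end along the chromosome, with circles for the Hand1 list, squares for the Foxf1 list and marker area in proportion to the authors' fold enrichment. Hand1 sites appear in the rows of Hand1, Mesp1 and Mesp2, and the rows of Twist1, Msc and Tcf15 are empty.

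The Hand1 site with the highest fold among these genes was a region between Mesp1 and Mesp2, genes that are transcribed away from each other. The region, chr7:79797137-79798224 (mm10), was 1088 bp wide and held a pair of summits 340 bp apart. Its higher summit had a fold enrichment over the caller's background of 19.2, which ranked 126 of 1134 in the Hand1 list, and a −log10 q-value of 51.5. That summit held 51 inferred fragments, with an exact 95% Poisson interval of 38.0 to 67.1 that covers counting error only. The lower summit had a fold of 9.87, a rank of 405 and 27 fragments (95% interval 17.8 to 39.3). The pair lay 3.79 and 4.13 kb upstream of the transcription start of Mesp1, a master regulator of early cardiovascular mesoderm, and 13.3 and 13.0 kb upstream of that of Mesp2, which sets segment borders in the presomitic mesoderm. Mesp1 was the nearest protein-coding gene of both. With 2 Hand1 summits in reach, Mesp1 and Mesp2 fell among the 2.4% of protein-coding genes that had at least as many. That share depends on counting the summits of the same region apart. With the lines of a region merged, the members had 4 Hand1 sites, and 9.9% of protein-coding genes had any Hand1 site.

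No Foxf1 peak overlapped this Hand1 region. The nearest Foxf1 summit lay 7.96 kb away on the other side of Mesp1, in the peak chr7:79789153-79789905 (fold 8.46, rank 1965 of 5703, 27 fragments). It was 2.82 kb beyond the downstream end of Mesp1 and 4.17 kb from its start. From Mesp2 the same summit lay 21.3 kb away. The further Foxf1 sites of the locus sat inside other genes. Those at chr7:79728238-79728503 (fold 6.41) and chr7:79729267-79729590 (fold 8.76) lay 1.07 kb apart in Plin1, which encodes a lipid droplet coat protein, 63.9 and 62.8 kb from Mesp1. A site in Kif7, a kinesin of the Hedgehog pathway, at chr7:79710064-79710447 (fold 9.84) was the strongest Foxf1 site of the locus by fold and lay 82.0 kb from Mesp1. It counted for Mesp1 only, because it was 100.501 kb from Mesp2 and so just outside the limit. The 4 Foxf1 sites of Mesp1 were matched or exceeded at 9.78% of protein-coding genes and the 3 of Mesp2 at 17.6%. This is a gene-rich stretch, with 8 other protein-coding genes within 100 kb of Mesp1 and 7 within 100 kb of Mesp2, against 0 to 3 for the other 8 members.

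**Figure D2:**
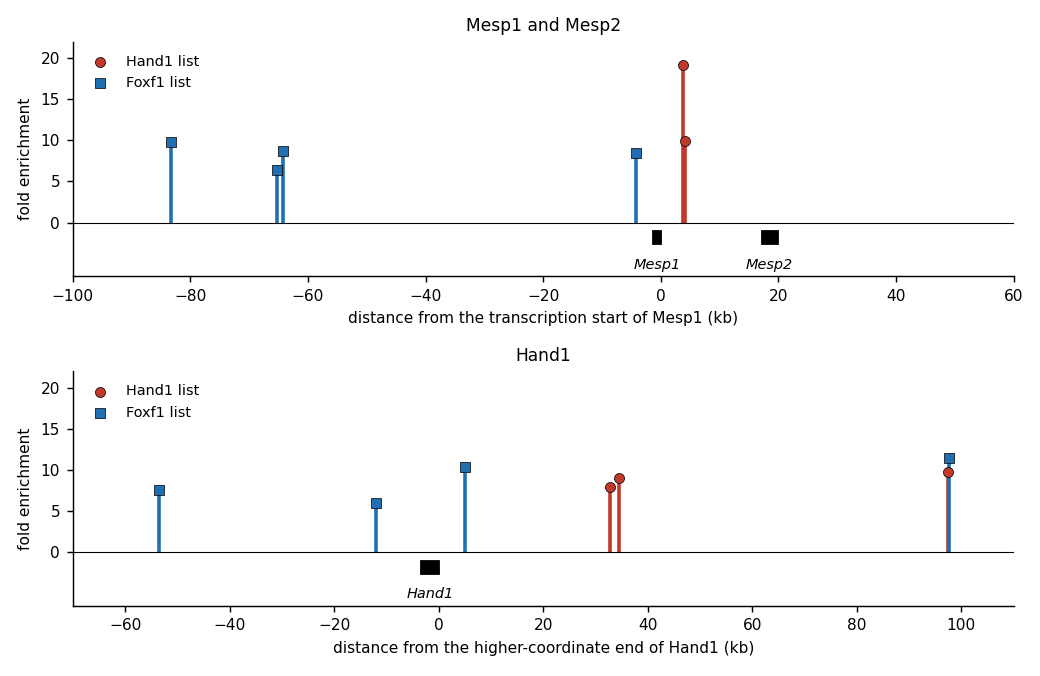
Fold enrichment of each summit (vertical axis, linear) against its distance in kb from the start of Mesp1 (upper panel) or from the higher-coordinate end of Hand1 (lower panel), with black boxes for the genes and circles and squares for the Hand1 and Foxf1 lists. The Hand1 pair stands between Mesp1 and Mesp2 with folds of 19.2 and 9.87, and at Hand1 the lists meet at the far right, near 97.5 kb.

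The promoter sequences of the Mesp pair are shown because they flank the Hand1 region. Each is the RefSeq window on GRCm38.p6 (the assembly of mm10) from 250 bases before to 50 after the start, 5′ to 3′ on the gene's strand, and neither window was touched by a peak. Capitals mark the E-box letters CANNTG, a pattern that covers both strands. The Mesp1 window is chr7:79793541-79793840, minus strand, and the Mesp2 window chr7:79810477-79810776, plus strand.
Mesp1: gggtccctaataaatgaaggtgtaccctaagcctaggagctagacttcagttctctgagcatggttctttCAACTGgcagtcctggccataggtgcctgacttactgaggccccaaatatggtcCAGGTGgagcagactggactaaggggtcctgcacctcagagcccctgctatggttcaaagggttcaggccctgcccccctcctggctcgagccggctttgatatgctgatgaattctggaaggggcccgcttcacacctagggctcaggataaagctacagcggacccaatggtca
Mesp2: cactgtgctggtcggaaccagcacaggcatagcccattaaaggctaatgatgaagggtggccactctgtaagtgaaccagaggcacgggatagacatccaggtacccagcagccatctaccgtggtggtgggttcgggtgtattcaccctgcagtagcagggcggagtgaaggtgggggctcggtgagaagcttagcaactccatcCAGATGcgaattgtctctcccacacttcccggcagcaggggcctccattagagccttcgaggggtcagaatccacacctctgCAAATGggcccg
Mesp1 held CAACTG at position -180 and CAGGTG at -126, and Mesp2 held CAGATG at -44 and CAAATG at 39, counted from 1 at the start base with no position 0. An E-box of any kind was found in 72.3% of the 32851 promoter windows of the same length, and the narrower CATCTG or its reverse complement CAGATG in 17.2%. The letters are a description of the windows and say nothing of binding there.

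At its own locus the tagged Hand1 factor had 3 sites, none of them close to the gene. The nearest were a pair of separate peaks, chr11:57864681-57865157 (fold 7.92, rank 564 of 1134) and chr11:57866295-57866904 (fold 9.004, rank 469), whose summits lay 1.86 kb apart and 32.7 and 34.6 kb beyond the higher-coordinate end of the gene. Hand1 was the nearest protein-coding gene of both. They held 17 fragments (95% interval 9.90 to 27.2) and 22 fragments (13.8 to 33.3), so the first peak was at the median fold of the list, 7.92, with fewer fragments than its median of 26. The third site, chr11:57929502-57929896, had a fold of 9.77 and 21 fragments (13.0 to 32.1). It lay 97.5 kb from Hand1, near the limit of the window, and its nearest protein-coding gene was Larp1, an RNA-binding protein gene, at 43.8 kb. At least 3 Hand1 sites were found at 1.36% of protein-coding genes. The next Hand1 summit outside the window was 379 kb from the gene.

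Foxf1 had 4 sites at the Hand1 gene. The site nearest to the gene, chr11:57836638-57837304, lay 4.97 kb beyond its higher-coordinate end, with a fold of 10.4 and 55 fragments (95% interval 41.4 to 71.6), the most fragments of the 12 Foxf1 sites. On the other side of the gene a weak site, chr11:57819968-57820604, lay 8.58 kb away with a fold of 6.02, which ranked 5025 of 5703. A site in Galnt10, a glycosyltransferase gene, at chr11:57778313-57778977 (fold 7.57) lay 50.2 kb away. The fourth, chr11:57929489-57930196, had a fold of 11.5, the highest of the 12 Foxf1 sites, and ranked 568. It covered the whole 395 bp of the third Hand1 peak, and the summits of the peaks were 159 bp apart. This was the single place near the 10 genes where the lists overlapped, 1 of 5 Hand1 sites and 1 of 12 Foxf1 sites. In the whole lists 17.6% of Hand1 peaks and 3.24% of Foxf1 peaks overlapped the other list. The inferred control level at the shared site was 1.25 for Hand1 and 2.84 for Foxf1, below the list medians of 1.74 and 2.92. The Hand1 value was at the floor of its list, where the lowest control level was also 1.25. Just outside the window a further Foxf1 peak, chr11:57934309-57934695 (fold 7.26), lay 102.3 kb from Hand1. In all 4 peak-to-gene distances fell between 90 and 110 kb, and 2 of them were inside the limit.

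Hand2, the close relative of Hand1 that acts in the right ventricle, limbs and neural crest derivatives, had no Hand1 site, and the nearest Hand1 summit was 3281 kb away. Its only Foxf1 site, chr8:57353611-57354132, lay 29.3 kb past the gene and 32.8 kb downstream of its start. With a fold of 5.45 (rank 5412 of 5703) it was the weakest of the 12 Foxf1 sites by fold, and it held 27 fragments over a control level of 4.14. No other protein-coding gene lay within 100 kb of Hand2. Within 100 kb Hand1 and Hand2 had 3 and 0 Hand1 sites and 4 and 1 Foxf1 sites, and within 50 kb they had 2 and 0 and 2 and 1. The difference was not tested, and a Foxf1 site without a Hand1 site is common among all genes.

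Of the paraxial genes besides Mesp2, Msgn1, an activator of the presomitic mesoderm programme, had 1 Foxf1 site. The peak, chr12:11196138-11196551, lay 11.97 kb past the gene and 12.5 kb downstream of its start, with a fold of 9.73 (rank 1132) and 27 fragments over a control level of 1.88, the lowest of the 12. The nearest Hand1 summit was 1065 kb away. Tcf15, also called paraxis, which maintains the epithelial state of somites, had no site. Its nearest Foxf1 summit, at chr2:151996274-151996634 (fold 5.92), was 147 kb away and its nearest Hand1 summit 7987 kb.

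Tcf21, a factor of epicardial and visceral mesenchyme precursors, had the Foxf1 site nearest to any of the 10 genes. The peak chr10:22816168-22816749 had its summit 0.749 kb past the downstream end of the gene, 3.63 kb from the start, and was the single site within 1 kb of a member gene in either list. Its fold of 11.1 ranked 664 of 5703, second to the shared site near Hand1 among the 12, and it held 37 fragments (95% interval 26.1 to 51.0). The nearest Hand1 summit to Tcf21 was 475 kb away. Msc, encoding musculin, a close relative of Tcf21 with repressor activity in branchial arch muscle precursors, had neither. Its nearest Foxf1 summit was 1163 kb and its nearest Hand1 summit 1680 kb away.

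The Twist genes, regulators of mesenchyme and of epithelial-to-mesenchymal transition, differed by 1 site in the Foxf1 list, which was not tested. Twist2 had 1 site, chr1:91874709-91875072, 26.8 kb past the gene and 73.4 kb downstream of its start, with a fold of 7.76 (rank 2733) and 37 fragments. Twist1 had none, and its nearest Foxf1 summit was 624 kb away. Neither had a Hand1 site, with the nearest summit at 285 kb for Twist2 and 799.7 kb for Twist1.

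Promoter windows were available for 7 of the 10 genes, and no peak of either list overlapped any of them. The 2 windows with a forkhead core, TAAACA or its reverse complement TGTTTA, are shown because both genes had a Foxf1 site elsewhere in the locus. The core stands in capitals, on GRCm38.p6 and as above, for Hand2 at chr8:57320733-57321032, plus strand, and for Msgn1 at chr12:11208899-11209198, minus strand.
Hand2: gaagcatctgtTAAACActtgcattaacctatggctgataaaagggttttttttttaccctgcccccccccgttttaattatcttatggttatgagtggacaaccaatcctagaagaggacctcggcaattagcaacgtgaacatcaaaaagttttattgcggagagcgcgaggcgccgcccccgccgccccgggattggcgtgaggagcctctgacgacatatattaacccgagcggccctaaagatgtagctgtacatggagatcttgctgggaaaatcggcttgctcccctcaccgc
Msgn1: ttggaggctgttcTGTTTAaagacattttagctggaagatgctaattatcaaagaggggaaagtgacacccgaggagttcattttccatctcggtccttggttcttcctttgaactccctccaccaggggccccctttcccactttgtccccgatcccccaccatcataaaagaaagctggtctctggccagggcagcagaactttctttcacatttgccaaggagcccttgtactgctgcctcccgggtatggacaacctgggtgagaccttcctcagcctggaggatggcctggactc
Hand2 held TAAACA at -239, which overlaps the E-box CACTTG at -235, and Msgn1 held TGTTTA at -237. This core was found in 13.4% of all windows, and the longer forkhead letters GTAAACA or TGTTTAC in 3.65% of all windows and in 0 of the 7. The window of Tcf21, the gene with the nearest Foxf1 site, held no E-box and no forkhead core.

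**Figure D3:**
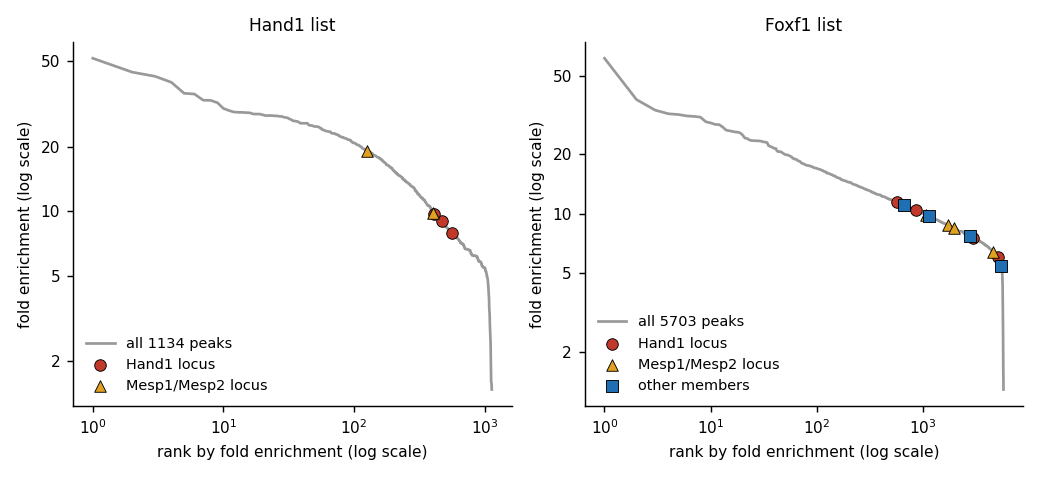
Fold enrichment against rank by fold, both on log scales, for every peak of each list (grey line), with the member sites marked by locus. The higher Hand1 summit at Mesp1 and Mesp2 stands at rank 126, and the other 4 Hand1 sites lie between ranks 405 and 564. The 12 Foxf1 sites spread from rank 568 to rank 5412.

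Set beside their lists, the member sites had higher median folds, a difference that was not tested. The 5 Hand1 sites had a median fold of 9.77 (7.92 to 19.2) against 7.92 in the whole list, and the 12 Foxf1 sites a median of 8.61 (5.45 to 11.5) against 7.62. None of the 17 had a high control level, defined as at least 5 times the lowest of the list, where 11.7% of Hand1 and 3.65% of Foxf1 peaks did. Nor was any within 500 bp of a transfer RNA (tRNA) gene, the place of 25.0% of Hand1 summits and 0.300% of Foxf1 summits on named chromosomes, and the nearest tRNA gene was 244 kb from a member site. None of the 17 summits lay inside a member gene. Within 5 kb of one lay 2 Hand1 and 3 Foxf1 sites, and 50 to 100 kb away lay 1 Hand1 and 5 Foxf1 sites. A member was the nearest protein-coding gene of 4 of the 5 Hand1 sites and of 7 of the 12 Foxf1 sites, and 4 of the other Foxf1 sites lay inside another protein-coding gene. Further summits lay inside genes not classed as protein-coding. For the Hand1 list this was Gm33026 near Hand1. For the Foxf1 list these were Gm32915 near Hand1, Hdnr near Hand2, Gm10824 near Tcf21 and 9530020I12Rik near Msgn1. The share of all summits inside such genes was not computed.

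The reach allowed for a site decided part of the counts. Within 50 kb the same 3 genes had a Hand1 site and the same 7 a Foxf1 site, where 6.06% and 41.7% of all protein-coding genes did. Sites of both lists were then found at 3 genes, against 4.03% of protein-coding genes. Within 10 kb a Hand1 site remained at Mesp1 alone and Foxf1 sites at Hand1, Mesp1 and Tcf21, against 2.8% and 22.7% of protein-coding genes. At 200 kb Tcf15 joined the genes with a Foxf1 site, making 8 of 10 against 65.9%, and the Hand1 count stayed at 3 against 16.6%. With tRNA-associated summits left out of the Hand1 list, the share of protein-coding genes with a Hand1 site within 100 kb was 8.27%.

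**Figure D4:**
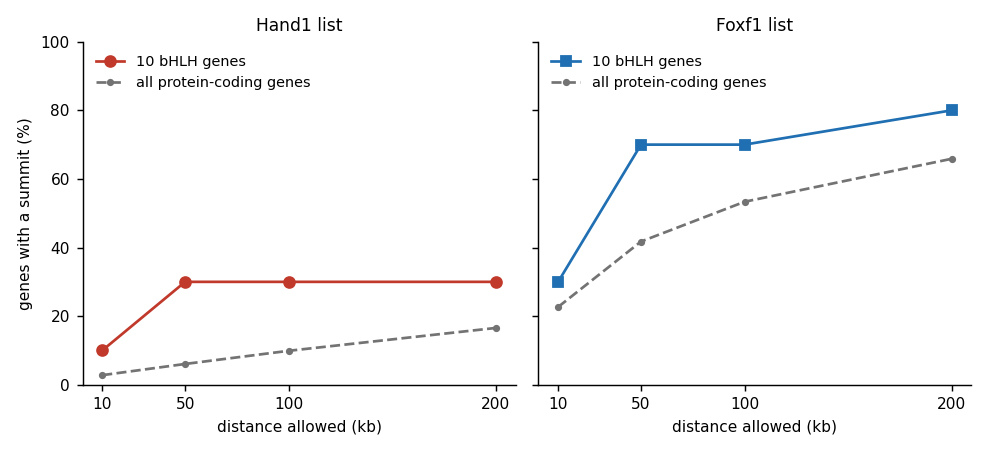
Percent of genes with at least 1 summit in the gene or within the distance on the horizontal axis (10, 50, 100 and 200 kb), for the 10 genes (solid) and all 21887 protein-coding genes (dashed), with 1 panel per list. The solid line lies above the dashed one at each distance in both lists, and in the Foxf1 list at 10 kb by 3 genes of 10 against 22.7%.

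The genes that pair with or restrain these factors were counted in the same way. All 3 E proteins had a Foxf1 site and none a Hand1 site, where 53.3% of all protein-coding genes had a Foxf1 site and 9.9% a Hand1 site. Tcf4 and Tcf12 are long genes, 344539 and 267642 bp, which widens the stretch in which a site is counted. Tcf3 had 5 Foxf1 sites, the nearest at 12.4 kb (fold 14.1), Tcf12 had 2, the nearest at 12.3 kb (fold 9.32), and Tcf4 had 1, inside the gene (fold 9.60). Of the 4 Id inhibitors, 3 had a Foxf1 site and none a Hand1 site, and no difference from those shares was tested for either group. Id1 had 6, the nearest at 5.22 kb (fold 9.79), Id3 had 5, the nearest at 4.57 kb (fold 9.34), and Id2 had 1 at 1.36 kb (fold 7.40), while Id4 had none. At least 5 Foxf1 sites, as at Tcf3 and Id3, were found at 5.37% of protein-coding genes and at least 6, as at Id1, at 2.99%. Another protein-coding gene was nearer to 4 of the 5 sites at Tcf3 and to 1 of the 2 at Tcf12. The same held for 5 of the 6 sites at Id1 and 4 of the 5 at Id3. Tcf3 had 11 other protein-coding genes within 100 kb.

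Over the 25 other bHLH genes examined, 18 had a Foxf1 site (72.0%) and 4 a Hand1 site (16.0%), and 3 had both (12.0%), against 53.3%, 9.9% and 7.65% of all protein-coding genes. The 3 were Hes1, Hes7 and Tal1. Hes1, a Notch-responsive repressor, had Hand1 summits 0.817 and 2.06 kb outside the gene and a Foxf1 summit inside it. Tal1, a regulator of blood and endothelial progenitors, had a Hand1 summit at 85.9 kb and a Foxf1 summit at 14.0 kb. The myogenic genes Myf5 and Myf6 had no site, and Myod1 and Myog had 1 Foxf1 site each. The shares of the 10 mesodermal genes were 70.0% for Foxf1 against 72.0% of the other bHLH genes, and 30.0% for Hand1 against 16.0%. Neither difference was tested. The 16.0% includes Hey2, whose only Hand1 summit was within 500 bp of a tRNA gene, and Hes7, where 17 of 20 were. No site of the 10 genes was so placed, but Mesp1 and Mesp2 counted the same Hand1 summits.

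**Figure D5:**
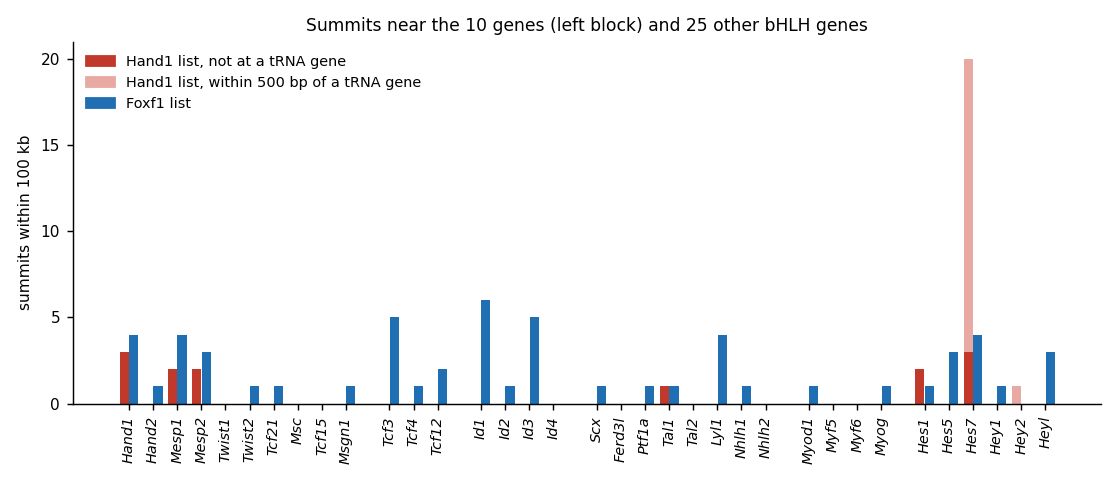
Number of summits within 100 kb of the 10 genes (left block) and of the 25 other bHLH genes, grouped as E proteins, Id inhibitors, other relatives, myogenic genes, and Hes and Hey genes, with red bars for the Hand1 list (pale where the summit is within 500 bp of a tRNA gene) and blue bars for the Foxf1 list. The bar of 20 Hand1 summits at Hes7 is mostly pale, 17 of 20, whereas the Hand1 bars of the 10 genes hold no pale part.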

How the data were processed

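Peak lists of 2 samples were used, 1 per factor. Per the submitters' processing notes, which give no order or role, Trim Galore 0.6.6, Bowtie2 2.3.4.3, SAMtools 1.9, deepTools 3.5.0 and MACS2 2.2.7.1 were used with build mm10. Whether libraries were pooled, which control was used and how peaks were selected is not given in the sources used here. The authors' deposited lists give for each peak a fold enrichment over background (a linear ratio), the p-value and the q-value of its summit as −log10, a score (10 times the −log10 p-value, decimals dropped) and the summit offset. These are the authors' values and were used to describe and rank peaks within 1 list. Each line counted as 1 site, also where a region had several summits.

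Gene positions came from the RefSeq table of GRCm38.p6, and all 10 symbols matched. It gives no strand or exons, so strand came from the promoter table (7 of 10 genes) and sites are described as inside or outside genes. Fragments k and control level λ were solved from fold = (k + 1)/(λ + 1) and the Poisson p-value. A whole number, within 0.05, was found for 100% of the peaks in each list. Overlap meant at least 1 shared bp. Scripts ran in Python 3.11.15 with pandas 2.3.3 and SciPy 1.17.1 and were tested on simulated data. No protein sequences or peak sequences were used here. The planned protein comparison was therefore not run. The members, gene lists and distances were chosen with earlier results of these data known. The rule for named genes was all 10 members with every site, then, of 25 other bHLH genes, those with sites in both lists and the E proteins and Id genes with a site. Id4, Hey2 and the 4 myogenic genes fall outside it and were named after their values were seen. Genes with the same pair of site counts as a member were to be named if at most 5. For each of the 10 members there were more (at least 13).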

Additional observations from a re-analysis of the deposited data

How the results depend on the processing

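The window, the strength limit and the list length changed some of the counts, most often the number of Foxf1 sites. As reported there were 5 Hand1 and 12 Foxf1 sites, 3 genes with a Hand1 site, 7 with a Foxf1 site, 3 with both, and 2 sites overlapping the other list. Of 67 alternatives over these 6 counts, 48 stayed within 1.5 times, 39 of them equal. Some of the 67 could not change a count. The Foxf1 list already began at a −log10 q-value of 10.0, and a cut to 1134 peaks left the Hand1 list whole. A fall from 3 to 2 genes also counted as within 1.5 times. Within 50 kb there were 7 Foxf1 sites and 0 overlapping sites. Within 10 kb there were 2 Hand1 and 4 Foxf1 sites and 0 overlapping sites. At this distance 1 gene had a Hand1 site, 3 had a Foxf1 site and 1 had both. The shares of all protein-coding genes were 2.80%, 22.7% and 1.35%. At a −log10 q limit of 20 there were 1 Hand1 and 4 Foxf1 sites and 0 overlapping sites. A Foxf1 site was then left at 3 genes and both at 1, against 26.9% and 1.81% of protein-coding genes. The gene with both was Mesp1, and its only Foxf1 site left was the one inside Kif7, 82.0 kb away. The 3 Hand1 sites at the Hand1 gene were lost at that limit, and a Hand1 site was left at Mesp1 and Mesp2 (2 genes, against 3.80%). With the Foxf1 list shortened to the 1134 strongest peaks, 5 Foxf1 sites at 4 genes were left by fold, and 4 sites at 3 genes by −log10 q-value. The shorter list alone lowers these counts: protein-coding genes with a Foxf1 site then made up 19.8% and 19.2%. By either ranking 2 of the member genes then had sites in both lists, against 3.11% and 3.39% of protein-coding genes. They were Hand1 and Mesp1, and by either ranking Mesp1 kept only the Foxf1 site inside Kif7. Keeping sites whose nearest protein-coding gene is a member, an alternative chosen after seeing the data, left 7 Foxf1 sites and 0 overlapping sites. A −log10 q limit of 10 and the exclusion of high control levels removed no member site, but the first lowered the shares of all protein-coding genes with a Hand1 site from 9.9% to 5.78% and with both from 7.65% to 4.56%. No paired analysis was possible because each factor had a single list, and no replicate could be left out. The least covered sites were the 3 Hand1 sites at Hand1 and 1 Foxf1 site in Plin1, which held 17 to 22 fragments. Sequencing depth is not in the lists, so its part in these counts was not tested.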

Other observations

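Hes7, an oscillating repressor of the somite clock, had 20 Hand1 summits within 100 kb, a number reached by 0.320% of protein-coding genes, and 4 Foxf1 summits. Of the 20, 17 lay within 500 bp of a tRNA gene, with folds up to 44.6. Hey2, a Notch target of the ventricular myocardium, had 1 Hand1 summit at 21.2 kb (fold 11.5), also at a tRNA gene, and no Foxf1 summit. At Hes1 the Hand1 folds were 5.42 and 5.37 and the Foxf1 fold was 5.76, and neither Hand1 peak was at a tRNA gene or overlapped the Foxf1 peak.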
